A study of Trametes cinnabarina with 17 samples.

Results

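Transcript levels of 31 genes of *Pycnoporus cinnabarinus* CIRM-BRFM 137 that stood high on Avicel and on wheat straw are described here. They were chosen by their measured values. The deposited normalised read counts were put on a scale of log2(value + 1) and averaged per carbon source, and a gene was kept where its means on Avicel and on wheat straw were both at least 6 and both at least 1 above the highest mean of the other 4 carbon sources. The rule was met by 36 of 9167 genes with a normalised value, out of 10442 gene models counted. The rule itself leaves out 5 of these, which carry annotated domains of cellulose-degrading enzymes, so that 31 remained. All 31 passed the filter on low counts that was applied before the tests. Because level on Avicel, level on wheat straw and distance to the other carbon sources were used to select the genes, these quantities are given as a description without a test. Tests were kept to differences that the rule did not use.

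All cultures were of 1 strain of this white-rot fungus, shaken at 30 °C and 120 rpm and harvested at day 3 as mycelium together with the solid substrate that remained. According to the labels the maltose cultures received 20 g/l maltose, and the other 5 kinds received 2.5 g/l maltose with 15 g/l of Avicel, ground wheat straw, aspen wood, pine wood or a mixture of xylans and galactomannans. The text of the study instead calls each substrate the sole carbon source and does not describe the xylan-galactomannan cultures. Substrate and maltose concentration cannot be told apart in any comparison with maltose. Each carbon source had 3 libraries except Avicel, which had 2, numbered 1 and 3. Total counts per library ranged from 10668073 to 16176027. The labels do not say that replicates are separate cultures, although the study describes independent cultures, so the p-values measure the spread between these libraries. No replicate pair agreed within sampling noise (lowest chi-square per degree of freedom, 8.50).

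White-rot fungi degrade all main polymers of wood. Crystalline cellulose, of which Avicel is a purified form, is attacked by cellobiohydrolases that release cellobiose from chain ends, by endoglucanases that cut within chains and by lytic polysaccharide monooxygenases that cleave chains by oxidation. Many of these enzymes carry a cellulose-binding module. β-Glucosidases, several of which belong to glycoside hydrolase family GH1, split cellobiose to glucose. Wheat straw holds cellulose together with hemicelluloses and lignin.

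The study's annotation gave a function for 3 of the 31 genes. Protein 4378 is a GH1 enzyme. Protein 3419 is a predicted mutarotase, an enzyme class that interconverts the α and β forms of sugars such as glucose. Protein 6605 is a carboxypeptidase C, a serine peptidase that removes residues from the C-terminal end of proteins. The other 28 genes have no annotation in the sources used here and are named by protein ID only.

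Levels of the 31 genes followed the same broad order on most carbon sources. The median of their mean log2 levels was 14.90 on Avicel, 12.41 on wheat straw, 10.10 on pine, 9.91 on aspen, 6.91 on xylan-galactomannan and 5.52 on maltose, whereas the median over all 9167 genes was between 9.21 and 9.27 on every carbon source. Means above 12 on the log2 scale were reached by 28 of the genes on Avicel and 19 on wheat straw. On aspen and pine there were 4 each, and on xylan-galactomannan and maltose none. Of all 9167 genes, 7.37% were above 12 on Avicel and 6.67% on wheat straw. The shares were 6.91% on aspen, 8.12% on pine, 6.52% on xylan-galactomannan and 5.75% on maltose. The study used this level to call groups of genes highly transcribed by the group's mean, not single genes. Avicel gave the highest mean for 29 genes and wheat straw for the other 2, 6605 and 4319. The next highest mean after these substrates was on aspen for 16 genes, on pine for 14 and on maltose for 1 (3024). Maltose gave the lowest mean for 28. In all 31 genes every Avicel and every wheat straw library lay above every library of the other 4 carbon sources. This separation held for 1.06% of all genes, and the rule largely fixes it.

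**Figure D1:**
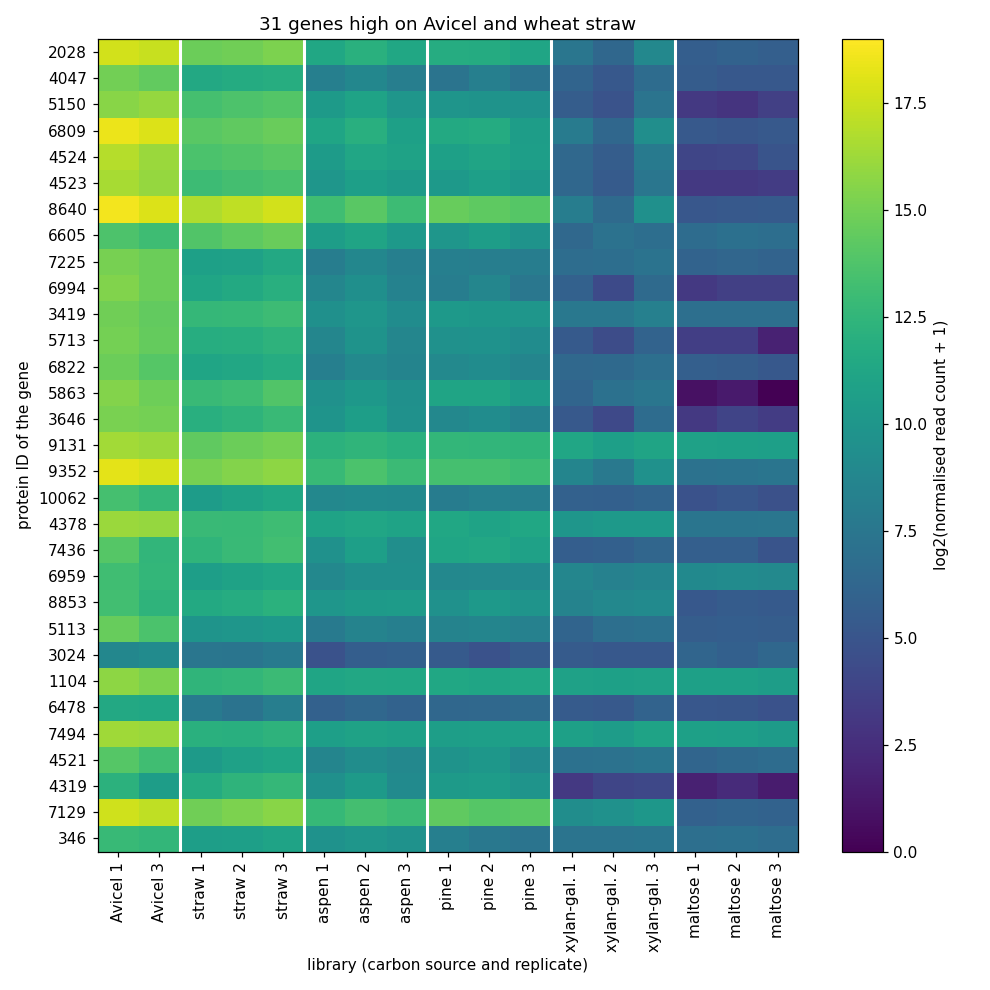
Level of each of the 31 genes (rows, by protein ID, ordered from the largest to the smallest distance between the lower of Avicel and wheat straw and the highest other carbon source) in each of 17 libraries (columns), as log2(normalised read count + 1) by colour. The Avicel and wheat straw columns are the brightest in every row, and 5863 and 4319 are darkest on maltose.

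The genes together took a large share of the transcripts on Avicel. They held 15.1% and 11.9% of all counts in the Avicel libraries and 2.65%, 3.38% and 4.51% in the wheat straw libraries. On aspen the shares were 0.344%, 0.594% and 0.389%, and on pine 0.599%, 0.546% and 0.485%. The shares fell to between 0.0738% and 0.106% on xylan-galactomannan and between 0.0548% and 0.0649% on maltose. These are shares of read counts, to which long genes contribute more. Of the 10 most counted genes in each Avicel library, 6 were among the 31. The 5 annotated cellulose genes that the rule leaves out held 2.71% and 2.80% of counts on Avicel and between 0.189% and 0.282% on wheat straw.

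**Figure D2:**
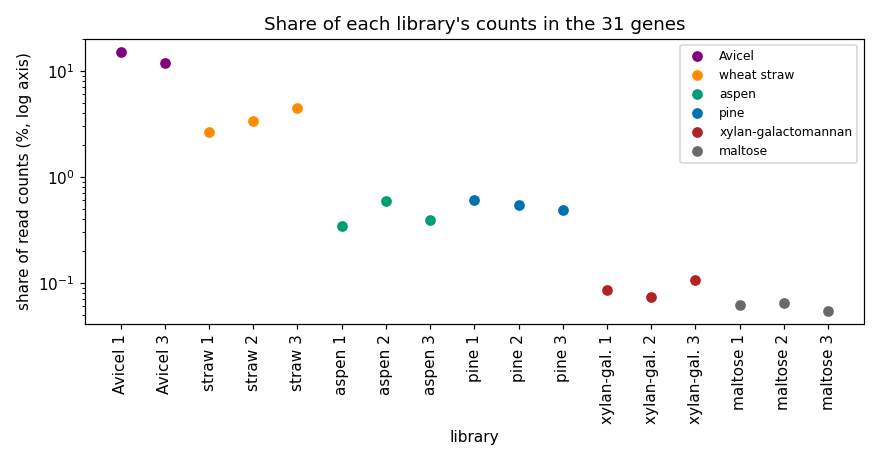
Share of each library's read counts taken by the 31 genes, in percent on a log axis, 1 point per library and 1 colour per carbon source. Points run from 15.1% in Avicel 1 to 0.0548% in maltose 3, and the 2 Avicel points lie above the 3 wheat straw points, which lie above all others.

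Among the 3 annotated genes, the GH1 gene 4378 had normalised read counts of 71548 and 63958 on Avicel and 7432, 7252 and 8869 on wheat straw. It had 2047, 2379.6 and 2092 on aspen, 2502, 2038 and 2525 on pine, 1027, 1252 and 1167 on xylan-galactomannan and 162, 163 and 171 on maltose. The replicates were close together at every level, and xylan-galactomannan stood well above maltose. The mutarotase gene 3419 had 30707 and 21903 on Avicel and 6284, 6693 and 8185 on wheat straw, against 744, 993 and 617 on aspen, 1196, 1089 and 1007 on pine, 196, 189.5 and 305 on xylan-galactomannan and 123, 122 and 121 on maltose. Its means descended from Avicel through wheat straw, pine, aspen and xylan-galactomannan to maltose, an order shared by 13 of the 31 genes, itself included. Another 13 had the same order except that aspen stood above pine. The carboxypeptidase gene 6605 had 13409 and 8600.3 on Avicel and 14320.0, 19670.1 and 25519 on wheat straw, every straw library lying above both Avicel libraries. Its counts were 1520.4, 2208 and 1188 on aspen and 1023, 1537 and 878 on pine, and its xylan-galactomannan libraries (86.4, 141 and 116) overlapped with its maltose libraries (105, 132 and 115).

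The 8 genes with the highest levels on Avicel and wheat straw were 8640, 9352, 7129, 6809, 2028, 9131, 4524 and 4523, none of which is annotated. Gene 8640 was the most counted of the 31 in both Avicel and all 3 wheat straw libraries, where it alone took 2.56% and 1.76%, and 0.823%, 1.12% and 1.64% of all counts. Its normalised read counts were 413316 and 267333 on Avicel and 110341, 147205 and 218359 on wheat straw. They were 9165, 18283 and 8551 on aspen, 24909, 19751 and 16066 on pine, 259.9, 94.8 and 737 on xylan-galactomannan and 34.4, 39.4 and 39.9 on maltose. The ratio of its means between Avicel and maltose was 8984. Gene 9131 had the smallest such ratio of the 8, with 86236 and 72077 on Avicel but already 1852, 1792 and 1687 on maltose, a ratio of means of 44.5. Gene 4523 had 91209 and 66418 on Avicel, 8489.7, 10026 and 12230.1 on wheat straw and 7.99, 7.88 and 9.55 on maltose. The ratio of its means between Avicel and maltose was 9305. With only 31 maltose counts in all, the interval for counting error of those counts alone ran from 6556 to 13695 (95%, exact Poisson). For 4524 the means were 98044 ± 36709 on Avicel (SD, n = 2), 14916 ± 2561 on wheat straw and 19.9 ± 8.36 on maltose (SD, n = 3 each). For 9352 they were 276161 ± 49081 on Avicel (SD, n = 2), 45554 ± 10848 on wheat straw and 153 ± 14 on maltose (SD, n = 3 each).

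The distance between the lower of the Avicel and wheat straw means and the highest other mean had a median of 2.22 on the log2 scale. It was largest for 2028 (3.41), 4047 (3.32), 5150 (3.24) and 6809 (3.08). For 2028, normalised read counts were 209569 and 169376 on Avicel and 27024, 30421 and 39349 on wheat straw, and its highest libraries elsewhere were on aspen (2537, 4183 and 2514). For 4047, normalised read counts of 31526 and 22173 on Avicel and 2901, 3264 and 3752 on wheat straw stood against 294, 436 and 274 on aspen, the highest of the others. For 5150 they were 50324 and 66945 on Avicel and 10916, 13265 and 15706 on wheat straw, against 1281, 2103 and 1000.1 on aspen. Gene 5150 was 1 of only 2 of the 31 that were higher in Avicel 3 than in Avicel 1. At the edge of the rule lay 346 (1.03), 7129 (1.10) and 4319 (1.14) just inside, and 6394 (0.998), 9908 (0.974) and 3359 (0.928) just outside. Gene 6394 has no annotation but stands in the same list of the study as the annotated cellulose genes.

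Wheat straw and Avicel were compared directly, since the rule uses both means but not their difference. Transcripts of most of the 31 genes were lower on wheat straw than on Avicel. In a quasi-likelihood fit of the counts (edgeR, p adjusted by Benjamini-Hochberg over 9162 genes), with calls made at adjusted p below 0.05 and a log2 fold change past 1 or -1, there were 27 of the 31 lower on wheat straw and 0 higher. At an unadjusted p under 0.05 in edgeR 1 gene was higher (6605), and DESeq2 called 0 higher. Over all genes tested, 7.15% were called lower and 8.18% higher. The median log2 fold change was -2.60 over the 31 genes and -0.0012 over all genes. In 28 of the 31 every wheat straw library lay below both Avicel libraries, a pattern found in 34.9% of all genes.

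The strongest reductions on wheat straw were in 7494, 5113, 7225 and 6809. Gene 7494 had normalised read counts of 80070.4 and 72741 on Avicel and 4222, 4109.7 and 4891 on wheat straw, a log2 fold change of -4.11 ± 0.17 (SE, adjusted p = 2.11e-11 in edgeR). Its levels on the other 4 carbon sources, between 1369 and 2048, came closer to wheat straw than wheat straw did to Avicel. Gene 5113 had 24251 and 12597 on Avicel and 921, 1006 and 1271 on wheat straw (-4.11 ± 0.27, SE, adjusted p = 2.76e-09 in edgeR). Gene 7225 had 34458 and 26976 and 1753, 1899 and 2812 on these substrates (-3.83 ± 0.22, SE, adjusted p = 4.43e-10 in edgeR). Gene 6809, the second most counted gene of the 31 in Avicel 1, fell from 350280.0 and 256124 on Avicel to 18489, 20695 and 26401 on wheat straw (-3.79 ± 0.55, SE, adjusted p = 2.39e-05 in edgeR). The GH1 gene 4378 was also lower on wheat straw (-3.11 ± 0.16, SE, adjusted p = 1.74e-10 in edgeR), and the mutarotase gene 3419 by less (-1.90 ± 0.21, SE, adjusted p = 1.09e-06 in edgeR).

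The 4 genes that were not called lower were 8640, 7436, 4319 and 6605. For the peptidase gene 6605 the difference ran the other way, with a log2 fold change of 0.85 ± 0.30 (SE, adjusted p = 0.0285 in edgeR), which does not reach the fold threshold. Gene 4319 had 4668 and 1515 on Avicel and 3237, 5130.4 and 6609.9 on wheat straw, so that the groups overlapped, and its 95% interval ran from -0.13 to 1.52. Gene 7436 had 16474 and 5834 on Avicel and 5437, 7396 and 9828 on wheat straw, again overlapping, with an interval from -1.36 to 0.23. For 8640 all straw libraries lay below both Avicel libraries, but the interval was wide (-2.19 to -0.01, edgeR adjusted p = 0.0992). Only 2 Avicel libraries were analysed, and some calls changed when 1 library was left out. Without Avicel 1, 2 genes were called higher on wheat straw (4319, log2 fold change 1.73, and 6605, 1.21), 7436 turned to 0.38, and the call of 8853 was lost (-0.53 from -1.02). Without Avicel 3, 7436 was called lower (-1.12). Gene 6605 was called higher without wheat straw 1 (1.04), and 8853 also lost its call without wheat straw 1 (-0.89) or wheat straw 2 (-0.99).

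**Figure D3:**
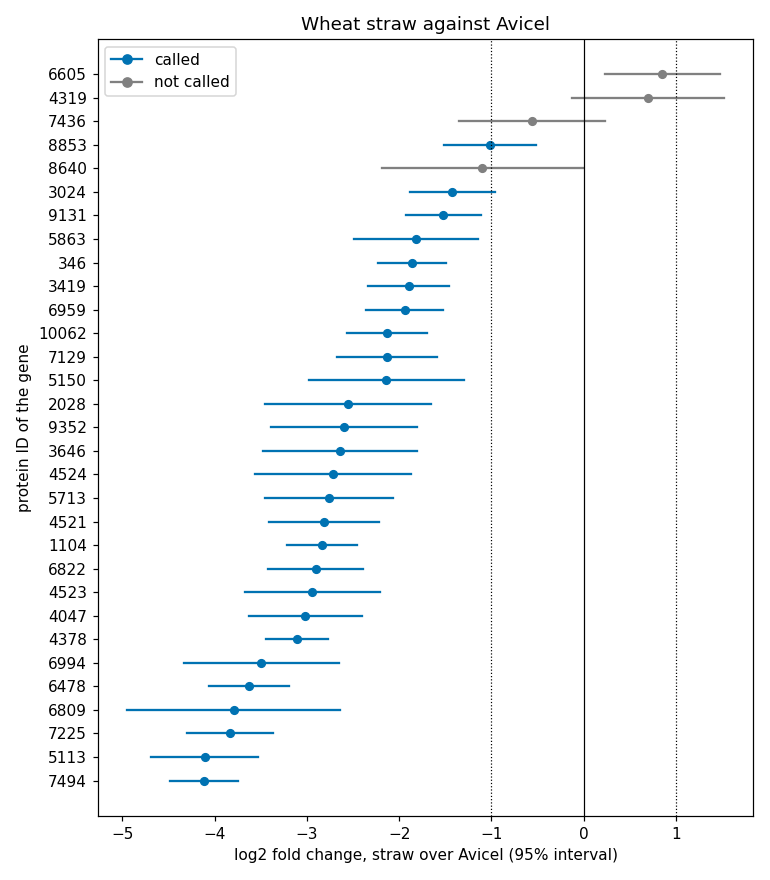
Log2 fold change of wheat straw over Avicel for each of the 31 genes (points) with its 95% interval (lines), from edgeR, with dotted lines at -1 and 1. The 27 called genes (blue) run from -4.11 to -1.02, and the 4 uncalled genes (grey) are 8640, 7436, 4319 and 6605.

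The list of the study that holds the annotated cellulose genes has 9 members, chosen by the study on these libraries. It includes the 3 annotated genes above, 6394, and the 5 genes that the rule leaves out, which are a GH131 enzyme with a cellulose-binding module (1365), GH5 subfamily 5 enzymes with such a module (1929 and 8616), a GH7 enzyme (5845) and an AA9 lytic polysaccharide monooxygenase with such a module (5579). Of the 9, 8 were called lower on wheat straw than on Avicel and 0 higher, with a median log2 fold change of -2.81. Among all genes tested, 7.15% were called lower and 8.18% higher. The study had grouped the 9 by similar transcription on these libraries. Their shared calls, here and against maltose, are therefore not independent of that grouping. The GH7 gene 5845 had 152183 and 181396 on Avicel and 4889, 4267 and 5501 on wheat straw, a log2 fold change of -5.09 ± 0.36 (SE, adjusted p = 5.86e-09 in edgeR). This was a larger reduction than in any of the 31 genes. The other 4 left-out genes had log2 fold changes of -4.52 (8616), -3.05 (1365), -2.81 (5579) and -2.57 (1929), and 6394 had -1.87. The study's tables of genes selected for plant substrates hold 167 genes, 27 of them with a carbohydrate-active enzyme entry. They were selected on these libraries for being higher on plant substrates than on both maltose and Avicel. Their calls against Avicel and maltose, and the absence of all 167 from the 31 genes, are therefore not independent of that selection. As a description, 19 of the 27 were called higher and 1 lower on wheat straw than on Avicel (median 1.75). Against maltose, 8 of the 9 genes of the cellulose list, 3 of which are among the 31, were called higher on aspen, 9 on pine and 4 on xylan-galactomannan, where 13.1%, 13.7% and 6.97% of all genes were. Of the 9, 1 (6394) was called lower on pine than on aspen, where 4.33% of all genes were.

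Levels on aspen, pine and xylan-galactomannan were next compared with maltose. The rule bounds all 4 from above but does not fix their order, and the 3 comparisons share the maltose libraries. On aspen 27 of the 31 genes were called higher and 0 lower, where 13.1% of all genes were called higher and 10% lower. On pine 26 were called higher and 0 lower, against 13.7% and 9.34% of all genes. The median log2 fold change of the 31 was 4.11 on aspen and 3.79 on pine, beside -0.02 and -0.03 over all genes. At an unadjusted p under 0.05 in edgeR 1 gene was lower on each wood (3024), and DESeq2 called 0 lower on either. The adjusted p of 3024 in edgeR was 0.0257 on aspen and 0.00427 on pine, so that it missed only the fold threshold. Levels on both woods lie below wheat straw by the way the genes were selected.

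The gene with the largest fold change on wood against a maltose group with more than 3 counts was 8640, with 8.28 ± 0.67 on aspen (SE, adjusted p = 8.58e-09 in edgeR) and 9.01 ± 0.68 on pine (SE, adjusted p = 5.25e-09 in edgeR). Gene 5863 had 1, 2 and 0 counts in the maltose libraries and normalised read counts of 782, 1115 and 734 on aspen and 2217, 2166 and 1354 on pine. Its ratio of means to maltose was 1108 (379 to 5373) on aspen and 2417 (827 to 11719) on pine, with intervals that cover counting error of the maltose counts only (95%, exact Poisson). It was called higher on both (edgeR adjusted p = 1.72e-10 and 6.16e-11). On Avicel and wheat straw 5863 had 44639 and 28197 and 7677, 8929 and 14357, so that it had the lowest level of the 31 on maltose and a level above their median on Avicel. The GH1 gene 4378 rose on aspen (3.69 ± 0.16, SE, adjusted p = 8.01e-12 in edgeR) and pine (3.79 ± 0.16, SE, adjusted p = 1.03e-11 in edgeR) by nearly the same amount. The peptidase gene 6605 (3.78 on aspen, 3.24 on pine) and the mutarotase gene 3419 (2.66 and 3.12) were also called higher on both.

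The genes not called on either wood were 1104, 3024, 6959 and 7494, and 346 was not called on pine (0.78, which does not reach the fold threshold). Except for 346 and 3024 these belonged to the 4 genes (with 9131) whose mean on maltose was above 9 on the log2 scale. Gene 7494 had 1712, 1943 and 1818 on aspen, 1589.5, 1681 and 1696 on pine and 1764, 1677 and 1369 on maltose, and the 95% interval of the log2 fold change ran from -0.15 to 0.48 on aspen and from -0.31 to 0.32 on pine. Both its aspen and its pine libraries overlapped with its maltose libraries. Gene 1104 had 2292, 2663 and 2579.9 on aspen and 1748, 1776 and 1564 on maltose, a log2 fold change of 0.54 that did not reach the fold threshold. Gene 3024 was the least abundant of the 31 on Avicel, with 439.8 and 585, and the only one whose highest mean after Avicel and wheat straw was on maltose (71.9, 56.7 and 80.7), above aspen (26.6, 50.2 and 56.7) and pine (41.2, 26.3 and 42.1). It had a log2 fold change of -0.69 on aspen and -0.97 on pine, and was called lower on pine without pine 1, pine 3 or maltose 2, in place of 0 genes.

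Fewer of the genes were called on xylan-galactomannan. There 17 of the 31 genes were called higher than on maltose and 0 lower, where 6.97% of all genes were called higher and 3.2% lower, and the median log2 fold change was 1.11, beside -0.0046 over all genes. At an unadjusted p under 0.05 in edgeR 2 were lower (3024 and 6959), and DESeq2 called 0 lower. Both missed only the fold threshold, with an adjusted p in edgeR of 0.00904 (3024) and 0.027 (6959). With Bonferroni adjustment 5 were called (4378, 4523, 5863, 7129 and 8853). Gene 7129 rose from 57.5, 66.9 and 60.7 on maltose to 638, 765 and 1050.4 on xylan-galactomannan (3.70 ± 0.27, SE, adjusted p = 1.55e-08 in edgeR). Gene 5863 had 73.4, 136 and 171 on xylan-galactomannan, a ratio of means to maltose of 160.1 (54.8 to 776) with the counting interval of the maltose counts (edgeR adjusted p = 1.74e-07). The GH1 gene 4378 was called higher with a log2 fold change of 2.77 ± 0.16 (SE, adjusted p = 5.84e-10 in edgeR). Neither the mutarotase gene 3419 (0.89, interval 0.45 to 1.32) nor the peptidase gene 6605 (-0.06, interval -0.68 to 0.55) was called. Of these, 3419 missed only the fold threshold (adjusted p = 0.00238 in edgeR). For several abundant genes the xylan-galactomannan libraries differed widely. Gene 6809 had 235, 79.9 and 681 in the 3 libraries against 39.1, 32.3 and 39 on maltose, and 8640 showed the same order of libraries. Without maltose 2, 3024 was called lower on xylan-galactomannan.

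Between pine and aspen, the 31 genes were called about as often as genes in general. Of the 31, 3 were called higher on pine than on aspen and 2 lower, against 7.8% and 4.33% of all genes, and the median log2 fold change was -0.05, the same as over all genes to this precision. Gene 7129 had 20896, 15922 and 18097 on pine and 6688, 10233 and 8016 on aspen (1.12 ± 0.23, SE, adjusted p = 0.000776 in edgeR), with no overlap. Gene 7436 had 2269, 2712 and 1840.4 on pine and 797, 1673 and 659 on aspen (1.11 ± 0.35, SE, adjusted p = 0.0145 in edgeR), and 5863 was also called higher (1.11). Gene 346 was the clearest difference in the other direction, with 294, 189 and 160.4 on pine and 817, 987 and 842 on aspen (-2.05 ± 0.18, SE, adjusted p = 1.3e-07 in edgeR). Gene 3646 had 477, 594 and 335 on pine and 912, 1574 and 796 on aspen (-1.24 ± 0.37, SE, adjusted p = 0.0104 in edgeR). The call of 346 alone held in every alternative tried. Without aspen 1 only 5863 was called higher. Without aspen 2 or pine 3 only 346 was called lower, and without pine 2 there were 4 (346, 3646, 4047 and 6994). The intervals of the other 26 genes reached up to 1.73 (8640) and down to -1.55 (6994), so that for some of them a difference past the fold threshold lay within the interval. For 4378 the interval was narrow, from -0.20 to 0.40.

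**Figure D4:**
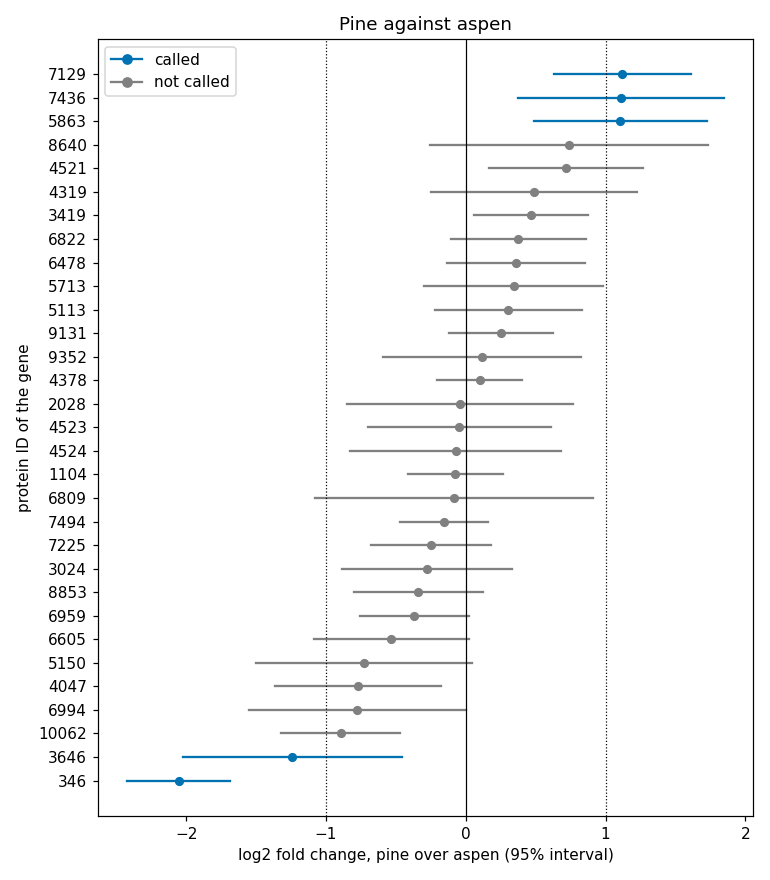
Log2 fold change of pine over aspen for each of the 31 genes (points) with its 95% interval (lines), from edgeR, with dotted lines at -1 and 1. Called genes are blue, with 346 at -2.05 and 3646 at -1.24 on the lower side and 7129, 7436 and 5863 near 1.1 on the upper side, and most grey intervals cross 0.

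The 31 genes also moved together between replicate libraries of the same carbon source, which the rule did not use because it reads only group means. In wheat straw 3 all 31 lay above their wheat straw mean, by a median of 0.30 on the log2 scale, and in wheat straw 1 only 1 did (6478). In aspen 2 all 31 lay above the aspen mean, by a median of 0.37, and in aspen 1 none did. In Avicel 1, 29 lay above the Avicel mean, the exceptions being 3024 and 5150, by a median of 0.24. In xylan-galactomannan 3, 30 did, all but 3024, by a median of 0.39. In these libraries between 48.9% and 51.3% of 8302 genes with a mean over the 6 carbon sources above 6 lay above their group mean. The median deviation over those genes was at most 0.0046. Dividing each library by 1 size factor centres the typical gene, so these values over all genes were largely set in advance. They are given as a description and do not test whether the shift is particular to the 31 genes. The replicate SD of the 31 genes was larger than that of other genes, with medians of 0.34 on Avicel, 0.28 on wheat straw and 0.38 on aspen against 0.13, 0.09 and 0.16 over the 8302 genes. Genes of 1 library share its preparation, so these counts are not counts of independent events. In pine 3 only 5 of the 31 lay above the pine mean. No such common shift was seen on maltose, where between 11 and 22 of the 31 lay above the mean.

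**Figure D5:**
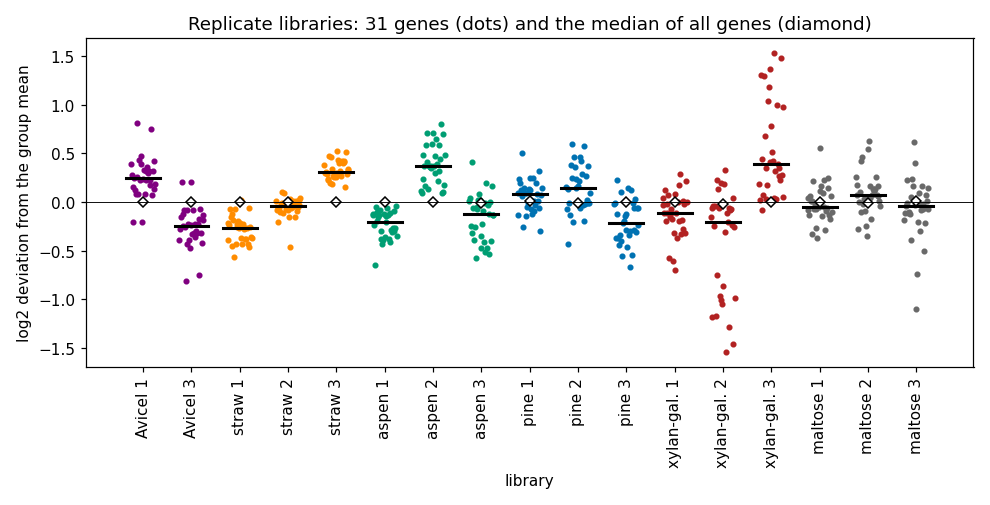
Deviation of each of the 31 genes from its mean over the replicates of the same carbon source (dots, log2 scale), by library, with the median of the 31 (black bar) and the median of 8302 genes (open diamond). Dots lie above 0 for all 31 genes in wheat straw 3 and aspen 2 and below 0 for all 31 in aspen 1. The diamonds stay near 0 in every library, which the scaling of each library by 1 size factor largely fixes.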

How the data were processed

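The authors trimmed and filtered paired-end Illumina reads, aligned them with TopHat 2 and counted them per gene model with HTSeq, and deposited these counts. The submitters' processing notes also name DESeq 1.5. For multi-mapped reads and strand the setting was not given in the sources used here, and values of near-identical or overlapping genes are therefore uncertain. The authors also deposited a normalized signal, in which each library's counts are divided by 1 size factor. It covers 9167 gene models, among which the lowest summed count was 85. All columns were matched to libraries (0 unmatched). Total counts were between 10668073 and 16176027 per library.

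The 31 genes were selected on the deposited normalized values as described above, with a pseudocount of 1. Both the rule and the gene lists were chosen with earlier results of these data known. Differences were tested on the deposited counts with edgeR 4.0.16 in R 4.3.3 (filterByExpr, TMM, quasi-likelihood fit over all 6 groups and 17 libraries), checked on simulated data. Adjustment was by Benjamini-Hochberg over 9162 genes, and calls needed an adjusted p below 0.05 with a log2 fold change past 1 or -1. Standard errors were derived from the log2 fold change and its F statistic. Alternatives were RLE and upper-quartile scaling, no filter, a replicate block, only the groups compared, each library left out, DESeq2 1.42.0, no fold threshold, Bonferroni, and other settings of the selection rule. Genes were named if annotated, among the 8 highest, the 4 most separated, the 3 nearest the margin on either side, or the 4 (wheat straw against Avicel) or 2 (other comparisons) most changed in each direction. Further genes were named where a count of at most 5 or a change under an alternative concerned them, and these were chosen after their values were seen. The study's supplementary tables supplied the annotations and the members of the cellulose and carbohydrate-active lists and of its selected genes, and none of their values were used. No ID (0) matched the RefSeq gene table, and none was paired with a sequence or position, so no sequences are shown.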

Additional observations from a re-analysis of the deposited data

How the results depend on the processing

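With a margin of 2 in place of 1 the rule gave 17 genes, and leaving out 1 library gave between 28 and 34. A pseudocount of 0.5, a level of 7 and TMM-scaled counts each gave 31. Group medians also gave 31, of which 29 were shared, with 346 and 4319 lost and 6394 and 9908 gained. Without the fold threshold 1 gene was higher on wheat straw than on Avicel, 1 was lower on aspen and 1 on pine than on maltose, 2 were lower on xylan-galactomannan than on maltose, and 4 were lower on pine than on aspen. Upper-quartile scaling, which moved the median of all genes by -0.12 for pine against maltose, gave 1 gene lower on pine than on maltose. Bonferroni adjustment left 5 higher on xylan-galactomannan than on maltose, and, for pine against aspen, 0 higher and 1 lower. Leaving out 1 library gave 0 to 2 genes higher and 26 to 28 lower on wheat straw than on Avicel, 26 to 27 higher on aspen, 26 on pine and 13 to 18 on xylan-galactomannan than on maltose. It gave 0 to 1 lower on pine and on xylan-galactomannan than on maltose, and, for pine against aspen, 1 to 3 higher and 1 to 4 lower. The log2 fold change of 7436 between wheat straw and Avicel reversed from -0.56 to 0.38 without Avicel 1 and was called, at -1.12, without Avicel 3. A tally by gene covered wheat straw against Avicel for all 31 genes. For the other comparisons it covered only the 2 most changed called genes in each direction. In this tally 520 values under alternatives kept direction and call, 17 lost the call, 5 gained it and 1 reversed. The other differences named above are not part of it.

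Libraries with the same replicate number did not consistently deviate together. Every correlation of their deviations from the group means exceeded 0.1 in only 1 of 15 pairs of groups, which is not a pair compared here, and the values ran from -0.28 to 0.30. Of the 6 libraries in each comparison of groups of 3, between 2 and 4 correlated best with their own number. These values cannot show whether samples of the same number share more than that number. With a replicate block the counts were 27 lower and 0 higher on wheat straw than on Avicel, 27 higher on aspen, 26 on pine and 17 on xylan-galactomannan than on maltose, and, for pine against aspen, 3 higher and 2 lower, as without the block.

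The limits are the 2 Avicel libraries, of which the first is the higher for 29 of the 31 genes, and the replicate spread of these genes, whose median exceeds that over all genes in each carbon source. On maltose several of the genes have few counts (31 for 4523, 10 for 4319 and 3 for 5863 in all), so their fold changes against maltose are imprecise.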
